A study of Homo sapiens with 6 samples.

Results

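The miR-181 family in these extracellular vesicles (EVs) was taken as hsa-miR-181a-5p, hsa-miR-181b-5p and hsa-miR-181d-5p, chosen by name as 3 of the 471 rows of a table of miRNA read counts. All 3 were among the 105 miRNAs that passed a filter on low counts and were tested. Cal27, a line derived from a human squamous carcinoma of the tongue, was grown as spheroids in Matrigel, a basement membrane extract, and EVs were collected from the medium on day 14. EV_soft denotes EVs of spheroids in Matrigel at 3 mg/mL, the soft matrix, and EV_stiff those of spheroids in Matrigel at 12 mg/mL, the stiff matrix. Small RNA was sequenced from 3 EV samples of each group, which the labels call biological replicates, to ask whether the stiffness of the matrix alters the miRNA cargo of EVs. No other treatment or genetic change is named for either group. All libraries are of 1 cell line, and the concentration of Matrigel rises together with its stiffness, so these cannot be told apart. EVs were purified by insulator-based dielectrophoresis, which traps particles in an electric field.

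A miRNA guides Argonaute proteins to messenger RNAs, mainly through its seed, the bases from position 2 to position 8. The members of a seed family can therefore address overlapping sets of transcripts, and their combined amount matters as well as the amount of each. The miR-181 family is best known from the blood, where miR-181a sets the sensitivity of the T cell receptor during thymic development and acts in the differentiation of B cells. In epithelial tumour cells, miR-181a is induced by TGF-beta and has been linked to epithelial-mesenchymal transition, while miR-181 members were described as tumour suppressors in glioma and other settings.

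The mature sequences of the 3 members are printed because they differ by so little that the assignment of reads to each bears on every comparison between them. All are 23 nucleotides long in RefSeq (GRCh38.p14), and capitals mark the seed.
hsa-miR-181a-5p: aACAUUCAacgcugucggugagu
hsa-miR-181b-5p: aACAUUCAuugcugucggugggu
hsa-miR-181d-5p: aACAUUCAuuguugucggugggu
The shared seed ACAUUCA pairs with UGAAUGU in a target. Of 2370 mature human names in the same sequence table, 5 (0.211%) have this seed. The others are miR-181c-5p and miR-4262, which were not analysed here. Counted from 1 at the 5′ end, miR-181b-5p differs from miR-181a-5p by A9U, C10U and A21G, 3 changes that all lie outside the seed. miR-181d-5p differs from miR-181a-5p by the same 3 changes and by C12U. The only difference of miR-181d-5p from miR-181b-5p is C12U, so 22 of their 23 bases are identical. A read of miR-181b-5p with the error C12U has the sequence of miR-181d-5p, and the values of this pair are uncertain to that extent.

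miR-181a-5p and miR-181b-5p are each encoded at a pair of loci, over which their counts sum, whereas miR-181d-5p comes from 1 locus. On GRCh38.p14, the hairpins MIR181A1 (chr1:198859044-198859153) and MIR181B1 (chr1:198858873-198858982) lie on the minus strand with 61 bases between them. They sit in an intron of the long noncoding RNA MIR181A1HG. MIR181A2 (chr9:124692442-124692551) and the second copy of miR-181b-5p (chr9:124693725-124693747) lie on the plus strand in an intron of MIR181A2HG, opposite to an intron of the nuclear receptor gene NR6A1. MIR181D (chr19:13874875-13875011) lies on the plus strand, 66 bases from MIR181C, in an intron of NANOS3, which encodes an RNA-binding protein of germ cells.

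Total miRNA counts were between 39211 and 66345 in the EV_soft libraries and between 28688 and 30685 in the EV_stiff libraries, so every EV_soft library was deeper than every EV_stiff library. Levels are given as CPM, the count relative to the library total scaled by edgeR's TMM factors. A miRNA with no read could have had up to 3 counts, equal to 44.2 to 107 CPM depending on the library, a bound that covers counting error only. Sums over marker miRNAs are the exception, being scaled by library totals only, without TMM factors. The sum of 4 epithelial markers was high in both groups, with 53990 to 62715 CPM in EV_soft and 46041 to 48592 CPM in EV_stiff. Every EV_stiff library was below every EV_soft library. These markers did not move alike. miR-200c-3p was called lower (log2 fold change −1.10), while miR-205-5p (0.20) and miR-203a-3p (1.21) were not called. miR-141-3p did not pass the filter. The lymphoid and myeloid markers miR-142-3p and miR-223-3p, which mark blood cells and thus the lineages in which miR-181a is best known, had 0 or 1 read in every library. The liver miRNA miR-122-5p rose in EV_stiff (log2 fold change 1.03 ± 0.18 SE, edgeR adjusted p = 0.00294), and its part in the results below was not tested. In EVs, fewer vesicles that carry a miRNA and fewer copies per vesicle cannot be told apart.

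All 3 members of the miR-181 family had lower mean levels in EV_stiff than in EV_soft, and 1 of them passed the test. By the fitted fold change, miR-181a-5p fell 2.40-fold. On the same measure miR-181b-5p and miR-181d-5p were lower in EV_stiff by 1.51-fold and 2.39-fold, and they did not pass the test. Calls were made with edgeR's quasi-likelihood test over all 105 miRNAs, at an adjusted p of at most 0.05 and a log2 fold change beyond 0.58 in either direction. By this rule 1 of the 3 members was called lower, where 8 of all 105 miRNAs (7.62%) were called lower and 19 (18.1%) were called in either direction. Without regard to the size of the change, 12 of 105 (11.4%) were lower at an adjusted p of at most 0.05, and miR-181a-5p was again the single member among them. The split of the 19 calls depended on scaling, with 8 lower and 11 higher under TMM factors, and 11 lower and 8 higher when libraries were scaled by their totals only. Calls also changed with 1 library fewer. Without EV_stiff replicate 1, 13 of 116 miRNAs tested were called, 7 lower and 6 higher. Without EV_stiff replicate 3, 14 of 115 were called, 8 lower and 6 higher. These are fewer calls from smaller fits, not another split of the same 19. The median log2 fold change of all 105 miRNAs was −0.04.

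miR-181a-5p was the most abundant member in EV_soft. It had 87, 95 and 133 reads in the 3 EV_soft libraries and 26, 18 and 30 reads in the 3 EV_stiff libraries. After TMM scaling these were 1885, 2309 and 1957 CPM in EV_soft and 854, 638 and 1066 CPM in EV_stiff. The groups did not overlap, and the highest EV_stiff library lay well below the lowest EV_soft library. The means were 2050.4 ± 227 CPM (SD, n = 3) and 853 ± 214 CPM (SD, n = 3). The log2 fold change was −1.26 ± 0.25 (SE), with a 95% interval of −1.82 to −0.70 and an edgeR adjusted p of 0.00503. It ranked 4 of 105 from the most negative log2 fold change and 10 of 105 by p. As a share of all miRNA reads, miR-181a-5p made up 0.190%, 0.242% and 0.200% of the EV_soft libraries and 0.0847%, 0.0627% and 0.101% of the EV_stiff libraries. The lowest of these shares rests on 18 reads and has a 95% Wilson interval of 0.0397% to 0.0992%.

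miR-181b-5p, which is transcribed together with miR-181a-5p from both of its loci, was lower in EV_stiff by a smaller margin. Its reads were 65, 63 and 102 in EV_soft and 27, 37 and 21 in EV_stiff. In CPM it stood at 1408, 1531 and 1501 in EV_soft and at 887, 1311 and 746 in EV_stiff. All 3 EV_stiff values were below all 3 EV_soft values, but EV_stiff replicate 2, at 1311 CPM, came close to the lowest EV_soft library, at 1408 CPM. The means were 1480.2 ± 64.2 CPM and 981 ± 294 CPM (SD, n = 3 each), and the spread was wider in EV_stiff. The log2 fold change was −0.59 ± 0.26 (SE), which did not pass the test (edgeR adjusted p = 0.116). Its 95% interval, which is not adjusted for the number of miRNAs tested, was −1.17 to −0.01. It overlaps the interval of miR-181a-5p and stops short of the −1.26 measured for it.

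The single library nearest to EV_soft weighed on that value. Without EV_stiff replicate 2, the log2 fold change of miR-181b-5p was −0.84 and it was called (edgeR adjusted p = 0.0497), and without EV_stiff replicate 3 it was −0.42 and was not called. Over all 20 alternative settings its log2 fold change was negative, and it was called in 2 of them, with adjusted p between 0.00114 and 0.339. The lowest of these p-values came from raw reads compared without scaling.

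miR-181d-5p was the least abundant of all 105 miRNAs tested. It had 11, 19 and 31 reads in EV_soft and 9, 2 and 3 reads in EV_stiff. These counts correspond to 238, 462 and 456 CPM in EV_soft and to 296, 70.9 and 107 CPM in EV_stiff. In EV_stiff replicates 2 and 3 the values did not exceed the bound for a miRNA with no read, 106 and 107 CPM. Raw reads did not overlap between the groups, whereas the scaled values did, since EV_stiff replicate 1 was above EV_soft replicate 1. The means were 385 ± 127 CPM and 158 ± 121 CPM (SD, n = 3 each), and the log2 fold change was −1.26 ± 0.56 (SE, edgeR adjusted p = 0.121). The interval of −2.51 to −0.01 spans nearly no change to a larger fall than that of miR-181a-5p, so a change of this member was not resolved at this depth. The filter needed 10 counts at the median library size, or 286 CPM, in at least 3 libraries, and miR-181d-5p reached that in exactly 3, of which 2 were EV_soft and 1 was EV_stiff. Without EV_stiff replicate 1 its log2 fold change was −2.11 (edgeR adjusted p = 0.0557), and it was not called by leaving out any library for which it was still tested.

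**Figure D1:**
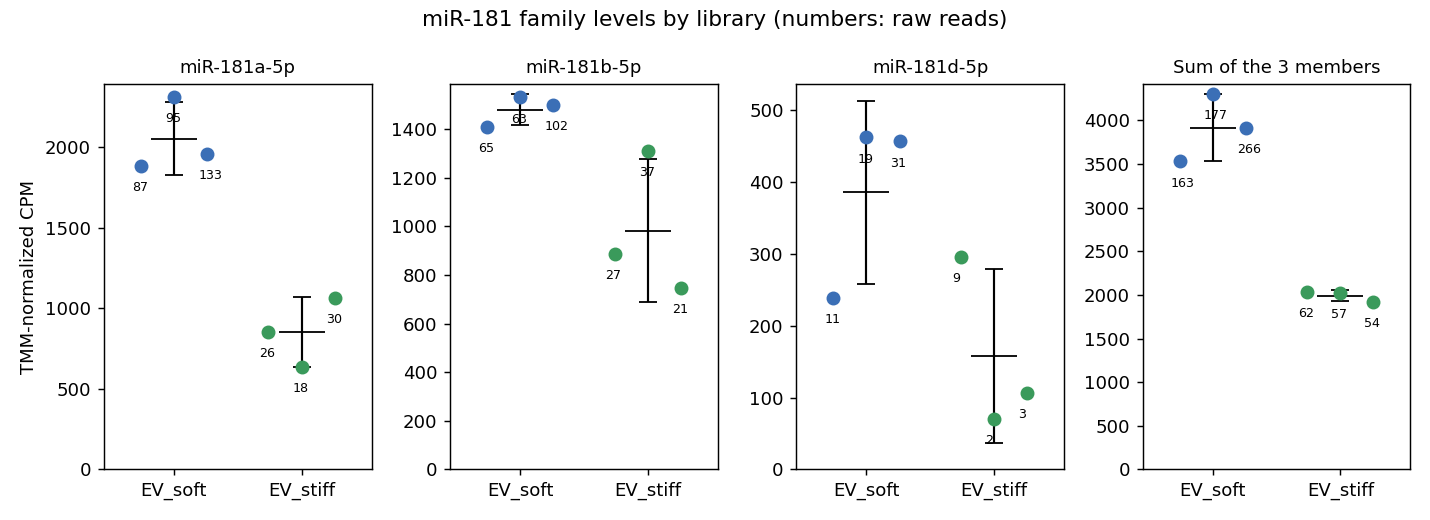
Levels of the 3 members and of their sum in each library, in TMM-normalized CPM on axes that start at 0. Points are libraries with their raw reads printed beside them, horizontal lines are group means and bars are SD (n = 3). miR-181a-5p sits at 1885 to 2309 CPM in EV_soft and 638 to 1066 CPM in EV_stiff, miR-181b-5p shows a narrow gap between the groups, and miR-181d-5p overlaps.

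In the plot of levels by library, 2 of the 3 members, miR-181a-5p and miR-181b-5p, had every EV_stiff library below every EV_soft library. That was so for 26 of all 105 miRNAs (24.8%). In EV_soft, miR-181a-5p was above miR-181b-5p in 3 of 3 libraries and their CPM ranges did not overlap. In EV_stiff it was above in 1 of 3 libraries, and the means of 853 and 981 CPM differed by less than their spread. miR-181d-5p was the lowest member in every library.

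The deeper EV_soft libraries moved together with the outcome. When every library was thinned to 28688 reads, the size of the smallest, miR-181a-5p had a log2 fold change of −1.23 and was called (edgeR adjusted p = 0.00704), and miR-181b-5p had −0.59 and was not (edgeR adjusted p = 0.139). miR-181d-5p no longer passed the filter after thinning. Left without any scaling, so that raw reads were compared directly, all 3 members were called lower, but the median of all 105 miRNAs then lay at −0.89 and all of the 57 miRNAs called were lower. Pooled over the libraries of a group, the ratio of EV_soft to EV_stiff reads per miRNA read was 2.50 for miR-181a-5p (95% exact Poisson interval 1.94 to 3.27), 1.59 for miR-181b-5p (1.24 to 2.07) and 2.56 for miR-181d-5p (1.42 to 4.96). These intervals cover counting error only and not the spread between libraries.

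**Figure D2:**
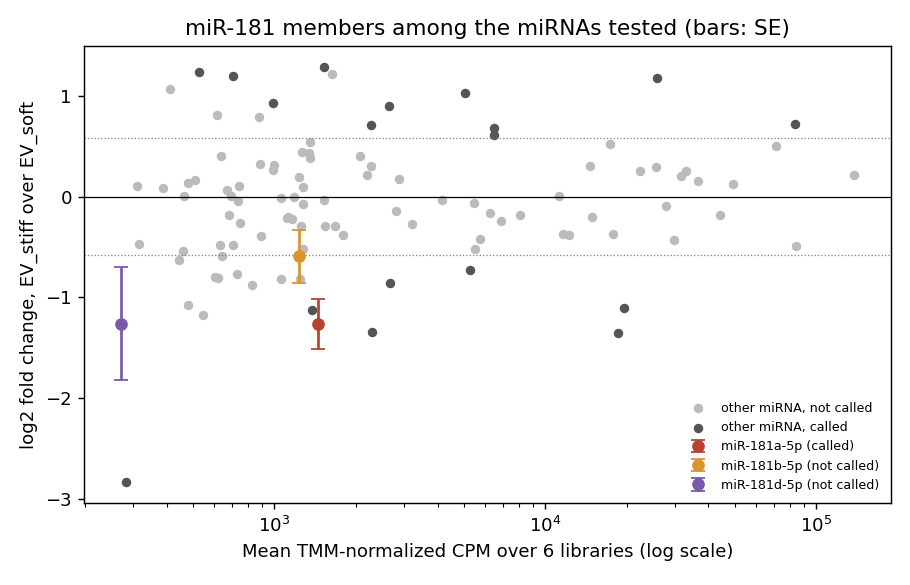
Log2 fold change of EV_stiff over EV_soft against mean TMM-normalized CPM (log axis) for the 105 miRNAs tested. Coloured points are the 3 members with SE bars, dark grey points are other miRNAs called, light grey points are those not called, and dotted lines mark a log2 fold change of 0.58 in either direction. All 3 members lie below 0, and miR-181d-5p lies at the low end of the levels with the widest bar of the 3.

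Neighbours in abundance showed how miRNAs of like level fared. miR-181a-5p was at rank 51 of 105 by mean CPM. Next above it stood miR-182-5p, a sensory and epithelial miRNA of the miR-183 cluster, with 1524 CPM and a log2 fold change of −0.03 (edgeR adjusted p = 0.949). Next below stood miR-200a-3p, a repressor of the mesenchymal factors ZEB1 and ZEB2, with 1377 CPM, which fell by 1.12 on the log2 scale (SE 0.27, edgeR adjusted p = 0.0147). miR-181b-5p, at rank 62, lay between miR-196a-5p of the HOX clusters (1244 CPM) and miR-1180-3p (1228 CPM). Their log2 fold changes were −0.82 (edgeR adjusted p = 0.0572) and 0.20 (edgeR adjusted p = 0.545), and neither was called. miR-147b, just above miR-181d-5p at 282 CPM, fell by 2.84 on the log2 scale (edgeR adjusted p = 0.0148).

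Summed over the 3 members, the family held 163, 177 and 266 reads in EV_soft and 62, 57 and 54 reads in EV_stiff. In CPM the sums were 3531, 4302 and 3915 in EV_soft and 2036, 2019.8 and 1919 in EV_stiff. The groups were well apart, and the EV_stiff sums were nearly equal. The means were 3916 ± 385 CPM and 1992 ± 63.3 CPM (SD, n = 3 each), so the mean in EV_soft was 1.97 times that in EV_stiff. Fitted as a single row in place of the members, the sum had a log2 fold change of −1.02 ± 0.16 (SE; 95% interval −1.40 to −0.64), which corresponds to a 2.03-fold lower level. No p is given for the sum because its members were chosen with earlier results known. The family took up 0.403 ± 0.0480% of miRNA reads in EV_soft and 0.194 ± 0.0109% in EV_stiff (SD, n = 3 each).

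The members spread in opposite ways within EV_stiff. Replicate 2 had the lowest miR-181a-5p and the highest miR-181b-5p of the group, and replicate 3 had the highest miR-181a-5p and the lowest miR-181b-5p. The coefficient of variation over the EV_stiff libraries was 25.1% for miR-181a-5p and 30.0% for miR-181b-5p, where Poisson counting alone gives 20.1% and 18.8%. For the sum it was 3.18%, below the 13.2% that counting alone gives, so the near-equality of the 3 sums is closer than their depth can resolve. In EV_soft the coefficients were 11.1% for miR-181a-5p, 4.34% for miR-181b-5p and 9.84% for the sum, beside 9.76%, 11.4% and 7.04% from counting. miR-181d-5p varied most, by 33.1% in EV_soft and 76.6% in EV_stiff, against 22.2% and 46.3% from counting.

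Shares of each member among the family's reads do not depend on the scaling of libraries. miR-181a-5p made up 53.4%, 53.7% and 50.0% of the family in EV_soft and 41.9%, 31.6% and 55.6% in EV_stiff. miR-181b-5p made up 39.9%, 35.6% and 38.3% in EV_soft and 43.5%, 64.9% and 38.9% in EV_stiff. miR-181d-5p made up 6.75%, 10.7% and 11.7% in EV_soft and 14.5%, 3.51% and 5.56% in EV_stiff. EV_soft libraries had nearly the same make-up, with miR-181a-5p at the front, while EV_stiff libraries differed among themselves. With 54 to 62 family reads per EV_stiff library, these shares are coarse, and the 95% Wilson interval of the miR-181a-5p share was 21.0% to 44.5% in replicate 2 and 42.4% to 68.0% in replicate 3. For miR-181b-5p the intervals were 51.9% to 76.0% and 27.0% to 52.2%.

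The mean share of miR-181a-5p went from 52.3 ± 2.04% in EV_soft to 43.0 ± 12.0% in EV_stiff, a difference of −9.33 percentage points (exact permutation test, two-sided p = 0.4, adjusted p = 0.6). That of miR-181b-5p went from 37.9 ± 2.17% to 49.1 ± 13.9%, a difference of 11.2 points (exact permutation test, two-sided p = 0.2, adjusted p = 0.6). That of miR-181d-5p went from 9.71 ± 2.61% to 7.86 ± 5.85%, a difference of −1.85 points (exact permutation test, two-sided p = 0.7, adjusted p = 0.7). All these means are over 3 libraries with their SD, p-values were adjusted over the 3 shares, and 3 libraries against 3 cannot give a p below 0.1. None of the differences exceeded the spread between the EV_stiff libraries, so a change of make-up with the matrix was not detectable here. Single EV_stiff libraries decided the size of these differences. Without EV_stiff replicate 2 the difference was −3.60 points for miR-181a-5p, 3.28 points for miR-181b-5p and 0.323 points, with the sign turned, for miR-181d-5p. Without EV_stiff replicate 3 it was −15.6, 16.3 and −0.70 points in the same order. The small miR-181d-5p difference also moved to −5.18 points without EV_stiff replicate 1, −3.33 points without EV_soft replicate 1 and −0.88 points without EV_soft replicate 3.

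**Figure D3:**
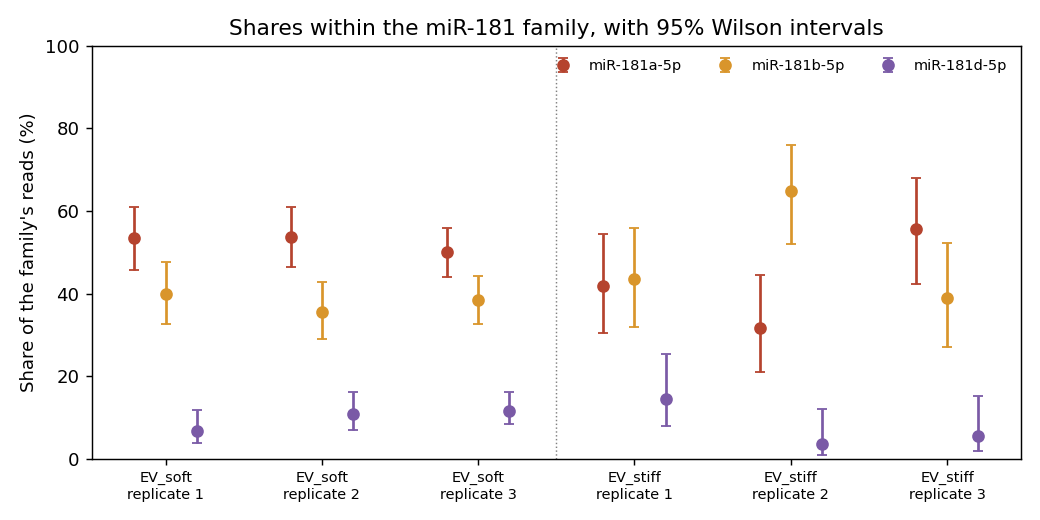
Share of the family's reads (%) taken by each member in each of the 6 libraries. Bars are 95% Wilson intervals, and the shares within a library add up to 100%. The EV_soft libraries cluster at 50.0% to 53.7% for miR-181a-5p, while the EV_stiff libraries range from 31.6% to 55.6%, with miR-181b-5p ahead in replicates 1 and 2.

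The ratio of miR-181a-5p to miR-181b-5p compares products that share their primary transcripts. It was 1.34, 1.51 and 1.30 in EV_soft and 0.963, 0.486 and 1.43 in EV_stiff. On the log2 scale the mean ratio was 0.47 ± 0.11 in EV_soft and −0.19 ± 0.79 in EV_stiff (SD, n = 3 each). The difference of −0.66 was within the spread of EV_stiff (exact permutation test, two-sided p = 0.3, adjusted p = 0.6 over 3 ratios), so the larger fold change of miR-181a-5p was not shown to differ from that of miR-181b-5p. The log2 ratio of miR-181d-5p to miR-181b-5p differed by −0.86 (exact permutation test, two-sided p = 0.4, adjusted p = 0.6). For miR-181d-5p to miR-181a-5p the difference was −0.21 (exact permutation test, two-sided p = 0.8, adjusted p = 0.8). Because miR-181b-5p and miR-181d-5p are separated by a single base, their reads were also summed, and the sum had a log2 fold change of −0.71 ± 0.24 (SE) and was not called (edgeR adjusted p = 0.0555).

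The opposite arms of the hairpins were read far less often. The hairpins of miR-181a are shown as they give the same 5p product but different 3p products, by which the 2 loci can be told apart. Capitals mark the mature arms (RefSeq, GRCh38.p14).
MIR181A1: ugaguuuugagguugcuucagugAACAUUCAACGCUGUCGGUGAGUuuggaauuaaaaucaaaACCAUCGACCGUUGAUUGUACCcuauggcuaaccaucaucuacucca
MIR181A2: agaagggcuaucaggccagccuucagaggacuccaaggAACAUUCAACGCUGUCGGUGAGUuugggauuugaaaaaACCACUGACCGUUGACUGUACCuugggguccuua
miR-181a-3p, from the MIR181A1 locus on chromosome 1, had 4 reads in all, every one in EV_soft replicate 3, the deepest library. miR-181a-2-3p, from the locus on chromosome 9, had 9 reads, with 0, 0 and 2 in EV_soft and 4, 0 and 3 in EV_stiff. Its reads in EV_stiff replicates 1 and 3 were above those of every EV_soft library, while EV_stiff replicate 2 had 0. The 5p product is counted over both loci, so the 5p level of this hairpin alone was not measured. The ratio of EV_stiff to EV_soft reads per miRNA read was 5.95, with a 95% exact Poisson interval of 1.13 to 58.7 that covers counting error only. This interval was computed for this 3p product alone. The reads of miR-181a-3p, miR-181b-3p and miR-181c-3p were all in EV_soft replicate 3. No test over libraries was made on so few reads, and a rise of this product was not shown.

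Over all libraries, the 3p arms made up 13 of 402 reads of the miR-181a hairpins (3.23%, 95% exact binomial interval 1.73% to 5.47%). They made up 3 of 318 reads of the miR-181b hairpins (0.943%, 0.195% to 2.73%). The latter share counts miR-181b-3p of MIR181B1 alone beside 5p reads of both loci, so it is not comparable with that of miR-181a. The 3 reads of miR-181b-3p were all in EV_soft replicate 3, as was the single read of miR-181c-3p. None of these 4 rows passed the filter. miR-181b-2-3p, miR-181c-5p and miR-181d-3p were not analysed here.

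The miRNAs whose levels ran most like those of a member over the 6 libraries were found by the root mean square (RMS) difference of log2 CPM after centring each miRNA on its mean. For miR-181a-5p they were miR-200c-3p, which represses ZEB1, at an RMS of 0.179, miR-146a-5p, an inhibitor of NF-kB signalling, at 0.222, and miR-584-5p at 0.234. Their log2 fold changes were −1.10, −1.36 and −1.17. The RMS includes the difference between the groups, so nearness to the −1.26 of miR-181a-5p follows from the choice. For miR-181b-5p the nearest miRNAs were miR-186-5p at an RMS of 0.182, miR-30d-5p at 0.224 and miR-200b-5p at 0.224. Their log2 fold changes were −0.80, −0.38 and −0.39. These are the smallest distances among all candidates, so they are not comparable with those between given members, which were 0.539 for miR-181a-5p and miR-181b-5p, 0.495 for miR-181a-5p and miR-181d-5p, and 0.702 for miR-181b-5p and miR-181d-5p. All of these points share the same 6 libraries, and low counts widen the distance.

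Other miRNAs of the settings in which miR-181 is known were counted as lists. Of 14 miRNAs tied to TGF-beta and epithelial-mesenchymal transition, 11 were tested. Of these 4 were called lower and 0 were called higher, by edgeR and by DESeq2 alike. Of all 105 miRNAs, edgeR called 8 (7.62%) lower and 11 higher. The list was chosen with earlier results of these data known, so these counts describe it and do not test it. At an unadjusted p under 0.05 edgeR gave 6 lower and 1 higher in the list, beside 22 lower (21%) and 20 higher (19%) among all 105. The median log2 fold change of the list was −0.49, beside −0.04 for all miRNAs tested. The 4 called were miR-200a-3p with the value above, miR-200c-3p (edgeR adjusted p = 9.68e-05), miR-200b-3p (log2 fold change −0.73, edgeR adjusted p = 0.00743) and miR-155-5p (−0.86, edgeR adjusted p = 0.0179). All of the 4 except miR-155-5p are miR-200 members, so the count rests largely on 1 family. The miR-200 members are known to hold the epithelial state and miR-155-5p to act in immune and TGF-beta signalling.

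Of 9 blood cell miRNAs, 3 were tested, and 2 of them, miR-146a-5p (log2 fold change −1.36, edgeR adjusted p = 3.45e-06) and miR-155-5p, which stands in both lists, were called lower. Only 3 miRNAs stand behind this count, which is set beside the 7.62% called lower among all 105. This list too was chosen with earlier results known. Its members miR-142-3p, miR-142-5p and miR-223-3p had at most 2 reads in any library, and miR-451a had 0 to 8. The 2 calls are therefore not a sign of blood cells in these samples. The remaining tested miRNA, the red cell marker miR-486-5p, had a log2 fold change of 0.10 (edgeR adjusted p = 0.946). The median of these 3 was −0.86. At an unadjusted p under 0.05 edgeR gave 2 lower in the list, beside 21% of all 105. None was called higher by edgeR or DESeq2, and none was higher at an unadjusted p under 0.05 in edgeR, beside 19% of all 105. Red cell markers, scaled by library totals only, summed to 452 to 1607 CPM in EV_soft and 358 to 1917 CPM in EV_stiff. These ranges overlap.

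**Figure D4:**
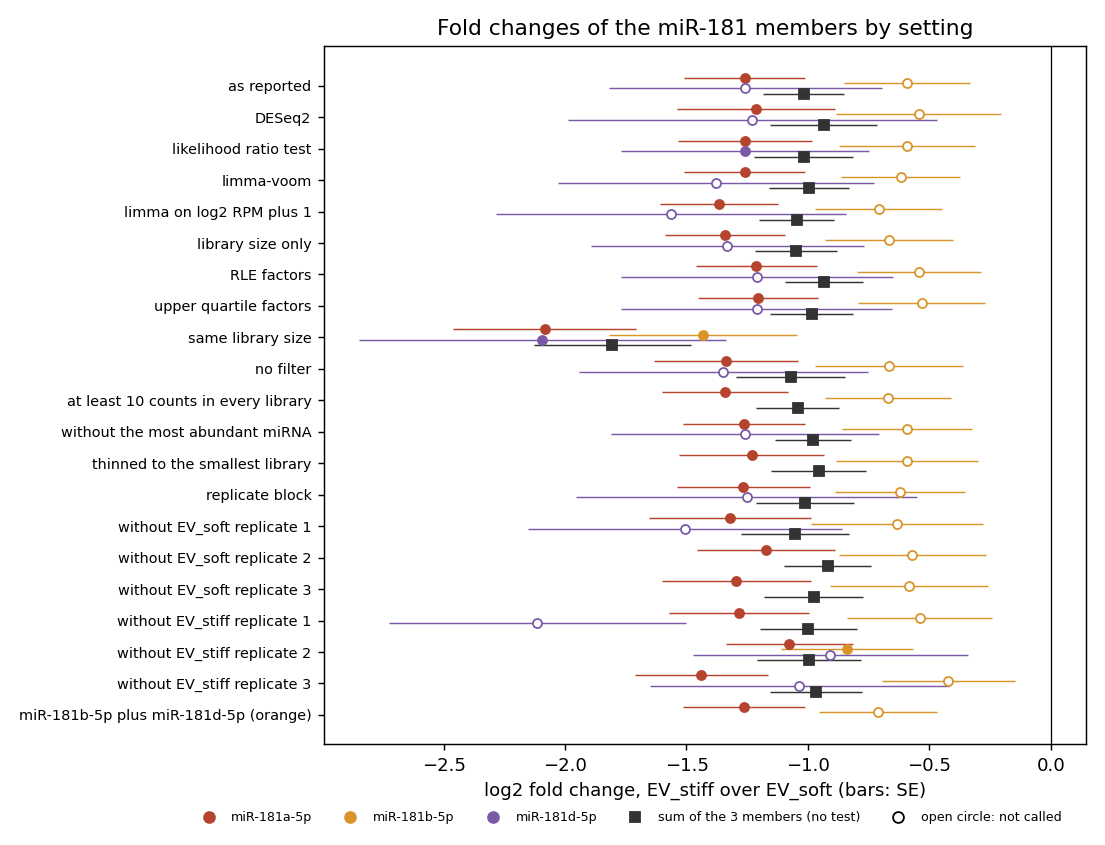
Log2 fold change of EV_stiff over EV_soft for each member and for their sum under the reported setting and each alternative, with SE bars. Filled circles are called, open circles are not called, and squares are the sum, which has no test. The values of miR-181a-5p lie between −2.08 and −1.08 and are filled throughout, while those of miR-181b-5p and miR-181d-5p are mostly open and all below 0. The −2.08 is from the same library size, where raw reads are compared without scaling.

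Across the alternatives in the plot of settings, miR-181a-5p was called in all 20, with adjusted p between 1.65e-06 and 0.0258. In the setting that sums miR-181b-5p and miR-181d-5p, the reads of miR-181a-5p itself were unchanged. The lowest p came from libraries taken as the same size, which compares raw reads without scaling. With scaling the lowest was 5.20e-05, from edgeR's likelihood ratio test. In the 6 fits without 1 library each, miR-181a-5p kept its call with log2 fold changes between −1.44 and −1.08. The log2 fold change of the sum lay between −1.81 and −0.92 over 19 alternatives, with −1.81 again from the same library size. When 1 library was left out, it lay between −1.05 and −0.92.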

How the data were processed

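Small RNA of EVs was sequenced in 6 libraries, 3 from EV_soft and 3 from EV_stiff, and groups and replicate numbers were taken from the labels. The authors deposited raw read counts per miRNA name, counted over RefSeq features, and used exceRpt for quality control. The submitters' processing notes name the build hg38, and the aligner and its version are not given in the sources used here. No molecular identifiers or removal of duplicate reads is named, so intervals and limits cover counting error only. How reads with mismatches or matches to several names were counted is not stated, which bears on near-identical members.

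The tests used edgeR 4.0.16 under R 4.3.3 (filterByExpr, TMM factors, glmQLFit and glmQLFTest, Benjamini-Hochberg adjustment over all 105 miRNAs), without a replicate block. SE is the log2 fold change divided by the square root of F. DESeq2 1.42.0, limma 3.58.1, other scalings and filters, thinning and leaving out each library were alternatives, and the fits were tested on simulated data. Log2 CPM for pattern likeness used a prior count of 2. Every pair of libraries differed beyond sampling noise (chi-square per degree of freedom at least 3.40).

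The miRNAs named are the 3 members, other products of miR-181 hairpins, the 3 nearest by pattern to miR-181a-5p and miR-181b-5p, the neighbours in level, markers, and called members of the lists. The members and lists were chosen with earlier results of these data known. Sequences are from RefSeq (GRCh38.p14) and host genes from GENCODE 44.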

Additional observations from a re-analysis of the deposited data

How the results depend on the processing

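miR-181a-5p kept its direction and its call in all 20 alternatives, of which the summing of miR-181b-5p and miR-181d-5p left its own reads unchanged. miR-181b-5p was lower in EV_stiff in all 20 and was called in 2, with libraries taken as the same size (log2 fold change −1.43) and without EV_stiff replicate 2. Its fits without 1 library ranged from −0.84 to −0.42. miR-181d-5p was lower in all 16 alternatives that gave a value and was called in 2, edgeR's likelihood ratio test (−1.26) and the same library size (−2.09). The summed reads of miR-181b-5p and miR-181d-5p are among the alternatives of both. miR-181d-5p was not tested after thinning, with at least 10 counts in every library, or without EV_soft replicate 2 or 3. With the same library size the sum of the members moved to −1.81 and the calls among all miRNAs to 57. That setting leaves the depth difference between the groups in the values. Without 1 library, the difference in the miR-181d-5p share ran from −5.18 to 0.323 percentage points. Over all miRNAs tested, same-numbered libraries did not deviate together (correlations −0.127, 0.130 and −0.0274), so the numbers were not taken as pairs. The red cell marker miR-486-5p was nonetheless highest in replicate 2 of both groups, and a shared origin of these libraries was not tested. With a replicate block, miR-181a-5p had −1.27 (edgeR adjusted p = 0.0183), the calls were 16 instead of 19, and no call of a member changed. The planned addition of miR-181c-5p to the sum was not run, so the sum covers the 3 members only. Between 54 and 62 family reads per EV_stiff library limit what shares can resolve.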
